A study of Mus musculus with 8 samples.

Results

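The macrophages of a tumor can be followed in bulk RNA through genes that mark them, and 10 such genes are described here: Csf1r, Tyrobp, Fcer1g, C1qa, C1qb, C1qc, Cd68, Lyz2, Adgre1 and Cd14. They were listed by name as macrophage markers, and every probe set that the annotation assigns to 1 of these genes alone was used. That gave 14 probe sets for the 10 genes, of 18194 genes named in this way. Csf1r and C1qb had 3 probe sets each and the other 8 genes had 1.

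The samples were 8 untreated neuroblastomas that arose in LSL-MYCN;Dbh-iCre mice. Tumors 1 to 6 grew in the adrenal and tumors 7 and 8 in the superior cervical ganglion of the neck, and each was profiled on 1 array. All carried human MYCN and luciferase behind a CAG promoter and a loxP-flanked stop in the ROSA26 locus, released by Cre under the dopamine beta-hydroxylase (Dbh) promoter, which is active in noradrenergic cells and their precursors. The ages of the mice, and whether each tumor came from a different mouse, were not given in the sources used here, so a p-value measures only the spread between these samples. Normal adrenals were not analysed here.

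Macrophages are tissue phagocytes that depend on signals through the receptor for colony stimulating factor 1 (CSF1), encoded by Csf1r. Many of their activating receptors have no signaling tail of their own and pair with the adaptors Tyrobp (DAP12) or Fcer1g (the Fc receptor gamma chain), whose ITAM motifs recruit the kinase Syk. Tissue macrophages are also a main source of C1q, the recognition molecule of the classical complement pathway, which is built from A, B and C chains. The transcription factor PU.1, encoded by Spi1, is required to make these cells and binds sequences around a GGAA core.

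The upstream sequences of 3 genes whose signals moved together over the tumors are shown, taken from the RefSeq promoter table of build GRCm38.p6. Each run is the 250 bases before the annotated start in the direction of the gene, all 3 on the minus strand. Capitals mark AGGAAG or GAGGAA, both with a GGAA core, or their reverse complements CTTCCT and TTCCTC, which may overlap.
C1qc, chr4:136892915-136893164: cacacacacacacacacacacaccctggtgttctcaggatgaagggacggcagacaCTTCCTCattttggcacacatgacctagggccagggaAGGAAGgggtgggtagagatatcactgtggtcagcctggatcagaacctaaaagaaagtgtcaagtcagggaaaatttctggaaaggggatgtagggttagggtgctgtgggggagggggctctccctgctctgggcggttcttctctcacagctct
Lyz2, chr10:117282273-117282522: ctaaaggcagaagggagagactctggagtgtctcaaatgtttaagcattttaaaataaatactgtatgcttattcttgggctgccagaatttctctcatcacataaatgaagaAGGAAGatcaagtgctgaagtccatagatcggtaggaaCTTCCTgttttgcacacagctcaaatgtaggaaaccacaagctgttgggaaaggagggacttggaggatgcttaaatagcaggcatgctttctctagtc
Fcer1g, chr1:171234350-171234599: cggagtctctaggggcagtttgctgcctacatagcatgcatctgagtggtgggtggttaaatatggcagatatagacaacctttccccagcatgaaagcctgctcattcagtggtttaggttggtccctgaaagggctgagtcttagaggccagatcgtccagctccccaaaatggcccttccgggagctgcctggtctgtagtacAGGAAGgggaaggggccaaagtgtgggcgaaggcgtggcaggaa
C1qc held 3 matches, beginning 194, 193 and 157 bases before the start, and those at 194 and 193 overlap. Lyz2 held 2, at 137 and 99 bases, and Fcer1g held 1, at 44 bases. Of the 10 genes, 5 were searched, and at least 1 match was also present in the windows of the remaining pair, C1qb and Cd68. A window of this length held at least 1 of these words in 39.2% of the 32851 promoters of the table, so a match is a description of the letters and not of a binding site. In the gene order of the RefSeq gene table of that build, C1qb, C1qc and C1qa were next to each other on chromosome 4, with no other protein-coding gene between them.

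The arrays of tumors 1, 6 and 7 stood apart in ways that bear on these genes. Tumor 7 had low signals of most noradrenergic genes that mark neuroblasts, with a list mean of -3.00 relative to the 8-tumor average on the log2 scale. Ddc, which makes dopamine, was at 7.38 in tumor 7 and at 13.66 or above in the other tumors. Not every gene of the list was low: Insm1 was at 12.28 in tumor 7 and 10.91 to 11.80 elsewhere, and Isl1 at 13.48 and 13.69 to 14.05. Tumor 6 held liver transcripts: Alb (albumin) was at 14.09 there and between 5.62 and 5.96 elsewhere. The 3′ minus 5′ difference of the Gapdh control probe sets, which widens as RNA is degraded, was 5.51 in tumor 1 and 0.47 to 1.57 elsewhere. A probe set was called detected above the 95th percentile of 83 probe sets of olfactory, vomeronasal and taste receptors, which was 6.71 to 7.21 over the arrays. On that scale 9 of the 10 macrophage genes were detected in all 8 tumors, and Cd14 in 5. In bulk tissue, fewer macrophages and less RNA per macrophage cannot be told apart.

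The macrophage genes varied more between tumors than most genes did. Their SD over the 8 tumors ran from 0.38 for C1qb to 1.06 for Cd14 with a median of 0.50, whereas the median SD of the 16254 tested genes was 0.26. That larger set had only to exceed log2 5 in 2 or more tumors, so it includes genes below the detection limit. Genes of similar signal were not compared. Tumor 7 was the lowest of the 8 tumors for 6 of the 10 genes, and 26.4% of all tested genes were lowest there. In tumor 5, 6 of the 10 were lowest or second lowest, against 28.8% of all tested genes. The mean of the 10 centred genes was -0.68 in tumor 7, -0.50 in tumor 5 and -0.01 in tumor 4. It lay between 0.10 and 0.38 in the other 5 tumors, with the highest value in tumor 8. The low noradrenergic signals of tumor 7 stood beside its low macrophage values, and their part was not tested. The 2 ganglion tumors held the lowest and the highest mean of the series. Yet 0 of the 10 genes were highest in tumor 8, and its mean was raised most by Cd14, at 1.06 above that gene's own mean. Single genes weighed on other means too. In tumor 2, with a mean of 0.24, Cd14 was at 1.97 and Adgre1 at 1.03 relative to their own means. In tumor 1, with a mean of 0.10, C1qa was at -1.76. With 1 array per tumor, no difference between single tumors could be tested.

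By their kept probe sets, Csf1r, Tyrobp and Fcer1g moved almost in step. The kept Csf1r probe set read 11.17, 10.28, 10.98, 10.37, 10.002 and 10.75 in adrenal tumors 1 to 6, and 9.71 and 10.70 in ganglion tumors 7 and 8. It was highest in tumors 1 and 3 and lowest in tumors 7 and 5, a range of 2.74-fold. Its second probe set followed it closely across tumors (r = 0.996, n = 8), and the third, which ran from 7.54 to 8.25, less so (r = 0.82). All 3 were lowest in tumor 7, but the third was highest in tumors 8 (8.25) and 3 (8.16), with 8.00 in tumor 1.

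Tyrobp had the same order at both ends as the kept Csf1r probe set. Its signal was 10.92, 10.19, 10.76, 10.21, 9.63 and 10.35 in tumors 1 to 6, and 9.25 and 10.42 in tumors 7 and 8. Fcer1g, which also serves mast cells, NK cells and other Fc receptor-bearing cells, read 9.86, 9.29, 9.68, 9.28, 8.62 and 9.42 in tumors 1 to 6, and 8.59 and 9.58 in tumors 7 and 8. For each of these genes tumor 7 lay below, and tumor 8 within, the adrenal range. Across the 8 tumors r was 0.978 between Tyrobp and Fcer1g, 0.977 between Csf1r and Tyrobp and 0.958 between Csf1r and Fcer1g. Without tumor 7 the values were 0.978, 0.966 and 0.934. The third Csf1r probe set had lower r over the 8 tumors, 0.807 with Tyrobp and 0.835 with Fcer1g.

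**Figure D1:**
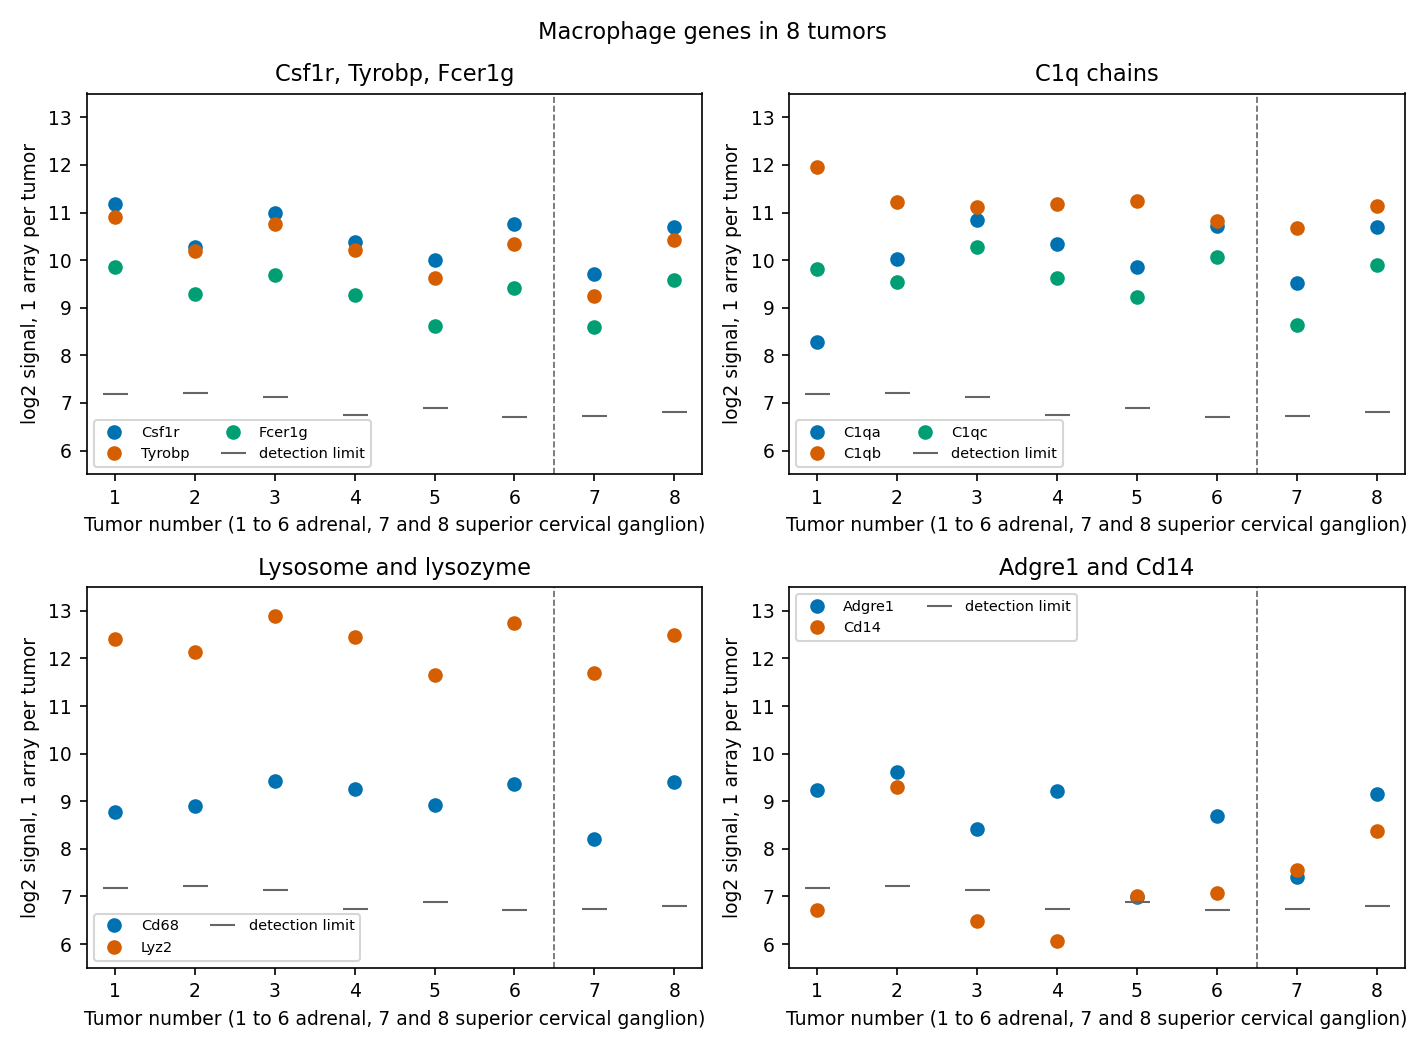
Log2 signal of the kept probe set of each of the 10 macrophage genes (vertical axes) in each tumor (horizontal axes), 1 point per array, with the detection limit of each array as a grey bar and a dashed line between sites. Tumors 5 and 7 are low for Csf1r, Tyrobp, Fcer1g, C1qc and Lyz2, C1qa is lowest in tumor 1, and Cd14 is highest in tumors 2 and 8. Heights are not comparable between genes.

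C1qc and Lyz2 followed the same tumors. C1qc, the C chain of C1q, was at 9.80, 9.54, 10.27, 9.62, 9.22 and 10.07 in tumors 1 to 6, and at 8.65 and 9.90 in tumors 7 and 8. Lyz2, the lysozyme of myeloid cells, was at 12.41, 12.14, 12.90, 12.45, 11.65 and 12.74 in tumors 1 to 6, and at 11.70 and 12.49 in tumors 7 and 8. Both were highest in tumor 3, and tumors 5 and 7 were the lowest for both (r = 0.933). Among the 5 genes Csf1r, Tyrobp, Fcer1g, C1qc and Lyz2, a group set apart after their values were seen, the 10 pairs had r between 0.842 and 0.978. The probe set of Lyz1, the close paralog of Lyz2, ran with Lyz2 (r = 0.985), and whether their probe sets tell the 2 transcripts apart was not tested.

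Cd68, a protein of macrophage lysosomes that other cells with many lysosomes also make, was at 8.76, 8.89, 9.43, 9.25, 8.91 and 9.35 in tumors 1 to 6, and at 8.21 and 9.41 in tumors 7 and 8. It was lowest in tumor 7, followed by tumor 1, and tumors 3 and 8 were nearly level at the top. Cd68 tracked C1qc (r = 0.873) more closely than it did Csf1r (r = 0.604). Without tumor 1 its r with Csf1r was 0.919, and without tumor 7 it was 0.213.

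The C1q chains, which function only as an assembled protein, did not give a common picture over all 8 tumors and all probe sets. C1qa, the A chain, read 8.27, 10.02, 10.85, 10.33, 9.86 and 10.72 in tumors 1 to 6, and 9.52 and 10.70 in tumors 7 and 8. The difference of tumor 1 from the mean of the other tumors was -2.01, or 4.04-fold, while C1qc in tumor 1 lay 0.20 above the mean of the others. Of the tested genes, 0.203% were at least as far below the other tumors in tumor 1. Across all 8 tumors r between C1qa and C1qc was 0.416, and without tumor 1 it was 0.973. With Csf1r the corresponding values were -0.01 and 0.988.

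C1qb, the B chain, gave different patterns by probe set. The kept probe set read 11.95 in tumor 1, 10.67 in tumor 7 and between 10.81 and 11.23 in the remaining 6. A second probe set followed it (r = 0.975). The third probe set was at 10.99, 10.79, 11.23, 10.77, 10.55 and 10.90 in tumors 1 to 6, and at 9.76 and 11.32 in tumors 7 and 8. It correlated with C1qc at r = 0.929, against 0.302 for the kept probe set. Between C1qa and the kept C1qb probe set r was -0.63, and without tumor 1 it was 0.237. Between C1qa and the third probe set r was 0.352, and without tumor 1 it was 0.904. Without tumor 1, r with C1qc was 0.928 for the third probe set and 0.349 for the kept one. The wide Gapdh gap of tumor 1 stood beside these values, and its part in them was not tested.

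**Figure D2:**
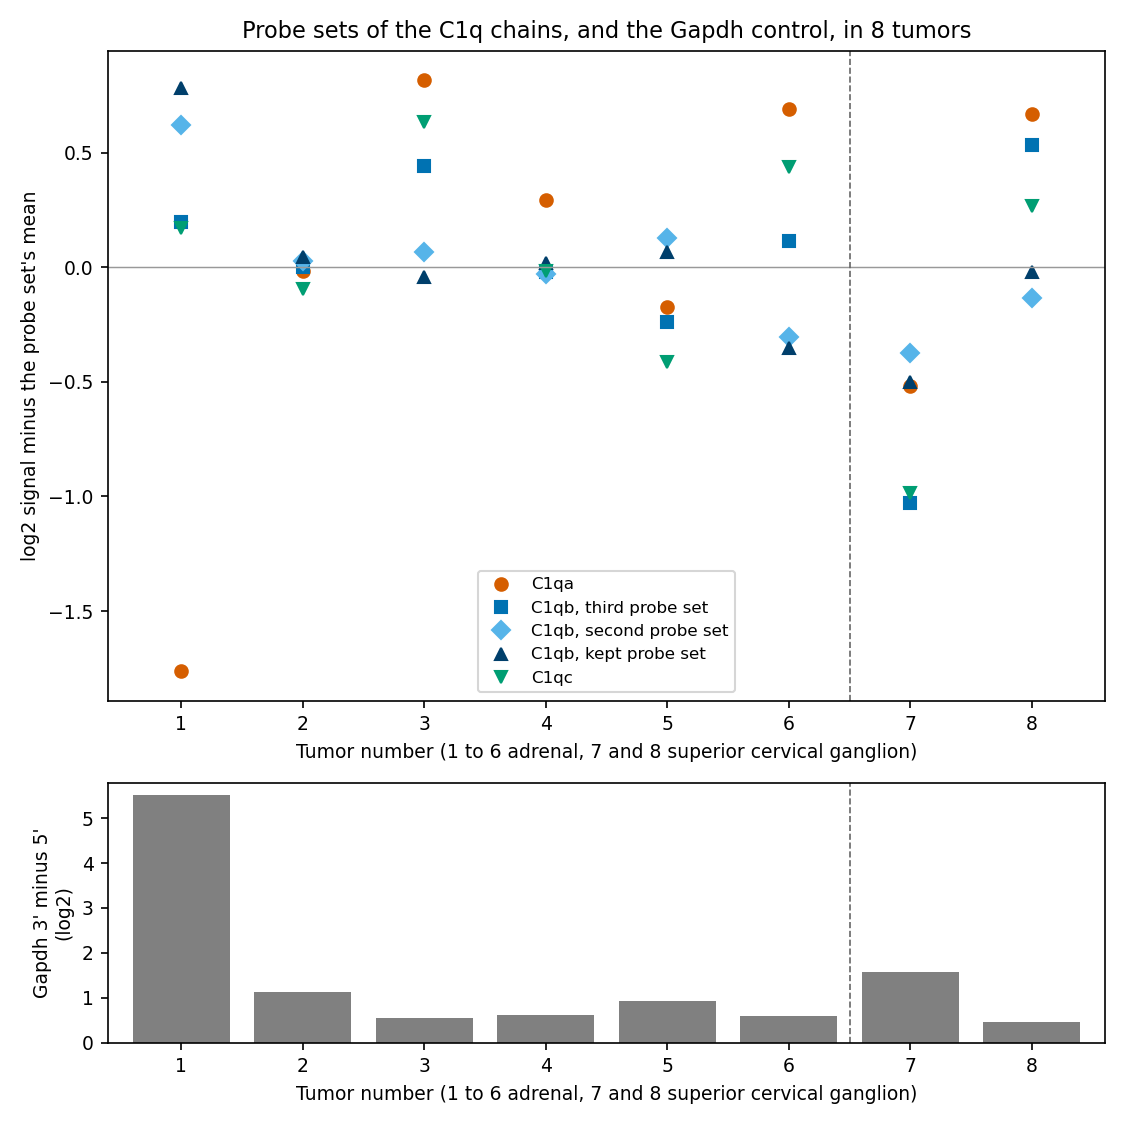
Upper panel: log2 signal of the 5 probe sets of the C1q chains, each minus its mean over the 8 tumors, by tumor. Lower panel: the 3′ minus 5′ difference of the Gapdh control on the same arrays, as bars from 0. In tumor 1 C1qa is far below the other probe sets and the Gapdh difference is 5.51; in tumor 7 all 5 probe sets are below their means.

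Adgre1, a surface antigen used to mark mature mouse macrophages, had a wide range. Its signal was 9.23, 9.62, 8.41, 9.22, 6.98 and 8.69 in tumors 1 to 6, and 7.41 and 9.16 in tumors 7 and 8. Tumors 5 and 7 stood below the rest, and the whole range was 6.20-fold. In tumor 5 the value was just above that array's detection limit of 6.89. Its highest r within the set was with Fcer1g (0.772).

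Cd14, the co-receptor that hands bacterial lipopolysaccharide to Tlr4, kept apart from the other 9 genes. It was at 6.71, 9.29, 6.48, 6.07, 7.00 and 7.07 in tumors 1 to 6, and at 7.55 and 8.38 in tumors 7 and 8. Tumors 2 and 8 were high, and tumors 1, 3 and 4 were under their detection limits. Its r with the other genes ran from -0.27 with Lyz2 to 0.261 with Adgre1. Cd14 is also made by neutrophils, hepatocytes and other cells. Of the neutrophil markers, S100a8 was at 6.18 in tumor 2 and 7.37 in tumor 8, with the highest values, 8.83 and 9.28, in tumors 1 and 7.

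Over all 45 pairs of the 10 genes, the median r was 0.564, and 11 pairs, or 24.4%, had r above 0.8. Between the macrophage genes and all other tested genes the median r was 0.101, and 3.16% of these values exceeded 0.8. All these values share the same 8 arrays and are descriptions. Without tumor 1 the number of pairs above 0.8 was 21, and without tumor 7 it was 6. The median r was 0.347 without tumor 7, 0.523 without both tumors 1 and 7, and 0.305 in the 6 adrenal tumors alone. It was 0.584 without tumor 6, which held the liver transcripts.

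**Figure D3:**
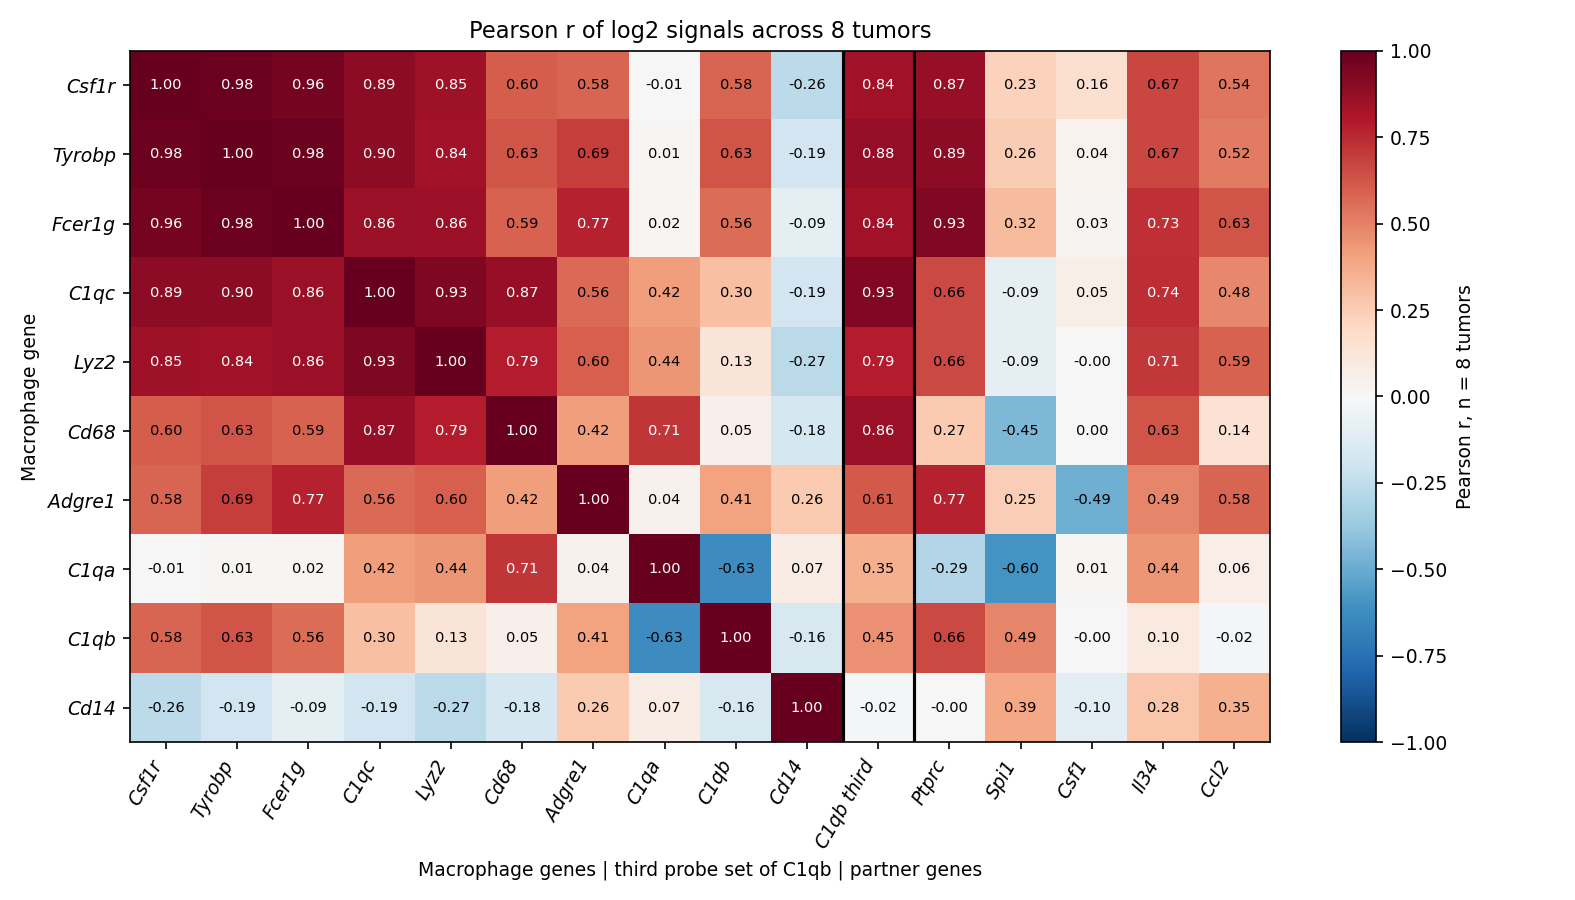
Pearson r of log2 signals over the 8 tumors between the 10 macrophage genes (rows) and, as columns, the same genes, the third C1qb probe set and 5 partner genes; red is positive and blue negative, and each cell gives r. Csf1r, Tyrobp, Fcer1g, C1qc and Lyz2 form a block with r of 0.84 or more, C1qa and Cd14 lie outside it, and the third C1qb probe set joins the block more closely than the kept C1qb probe set.

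Each macrophage gene was then set against 5 partner genes: Ptprc (CD45, on all white blood cells), Spi1, the Csf1r ligands Csf1 and Il34, and the monocyte attractant Ccl2. None of the 50 relations passed an adjusted p of 0.05 by exact permutation of the tumors, 2-sided, with Benjamini-Hochberg adjustment over the 50, by Pearson's r or by Spearman's rho. Before adjustment 7 passed by r. The values came closest for Ptprc, which read 9.70, 8.78, 8.84, 8.32, 7.47 and 8.60 in tumors 1 to 6, and 7.76 and 8.60 in tumors 7 and 8. As for Fcer1g, tumor 1 was the highest and tumors 5 and 7 the lowest. For Fcer1g with Ptprc r was 0.927 (n = 8, exact permutation p = 0.00117, adjusted p = 0.0583) and rho was 0.905 (exact permutation p = 0.00456, adjusted p = 0.192). Without tumors 1 and 5, the farthest from the median of Ptprc, r was 0.912. Within the 6 adrenal tumors it was 0.948 (exact permutation p = 0.0111), and the 2 ganglion tumors are too few for a value. Quantile normalization moved the adjusted p of the exact permutation test to 0.0459, and leaving out tumor 2 moved it to 0.0298. Leaving out any other single tumor gave an adjusted p of that test between 0.0992 and 0.25. With the mean of all probe sets r was 0.86 and the adjusted p of that test 0.271.

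For Tyrobp with Ptprc r was 0.894 and rho 0.833, and for Csf1r with Ptprc r was 0.87 and rho 0.81 (adjusted exact permutation p for r = 0.0843 for both). Csf1 was detected in all 8 tumors but ran only from 7.44 to 7.91, and its r with Csf1r was 0.16. Il34 and Ccl2 were detected in no tumor and Spi1 only in tumor 7, at 6.81 with a limit of 6.74 on that array. Spi1 read higher in tumors 1 (6.97) and 2 (6.85), where the limits were 7.18 and 7.21. The signals of Il34, Ccl2 and Spi1 near background limit what their correlations can show.

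No macrophage gene passed the test between ganglion and adrenal tumors. In limma with Benjamini-Hochberg adjustment, 0 of the 10 passed 0.05, beside 3 of 16254 tested genes (0.0185%) in either direction. None of the 10 passed an unadjusted p of 0.05 either, here or with trended and robust variance estimates, whereas 4.68% of tested genes did. The ganglion mean was lower for 8 of the 10, as it was for 55.2% of tested genes, with a median difference of -0.32 for the macrophage genes and -0.03 for all genes. The largest difference downward was that of Tyrobp, -0.51 (SE 0.38, 95% interval -1.37 to 0.36, limma adjusted p = 0.907). Cd14 was 0.86 higher (SE 0.73, 95% interval -0.79 to 2.51, limma adjusted p = 0.927). The 95% intervals of Adgre1 (-1.96 to 1.14) and C1qa (-1.34 to 1.53) were also wide, and do not exclude a sizeable difference either way.

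The direction depended on tumor 7. Without it 9 of the 10 genes had the higher value in the ganglion, which was then represented by tumor 8 alone. C1qb remained lower by its kept probe set. The second C1qb probe set read 10.47 in tumor 8 with an adrenal mean of 10.69, and the third 11.32 with an adrenal mean of 10.87. Without tumor 8 the ganglion value was lower for 9 of the 10, and 951 genes of the whole table were called, none of them among the 10. In both cases the lone ganglion tumor was assumed to vary like the adrenal ones. Of the 3 genes called with all tumors, Acta1 and Tnnt3 are skeletal muscle genes, and Clvs2 is the other. The skeletal muscle list mean was 1.18 in tumor 7 and 0.59 in tumor 8, and below 0 in the adrenal tumors.

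**Figure D4:**
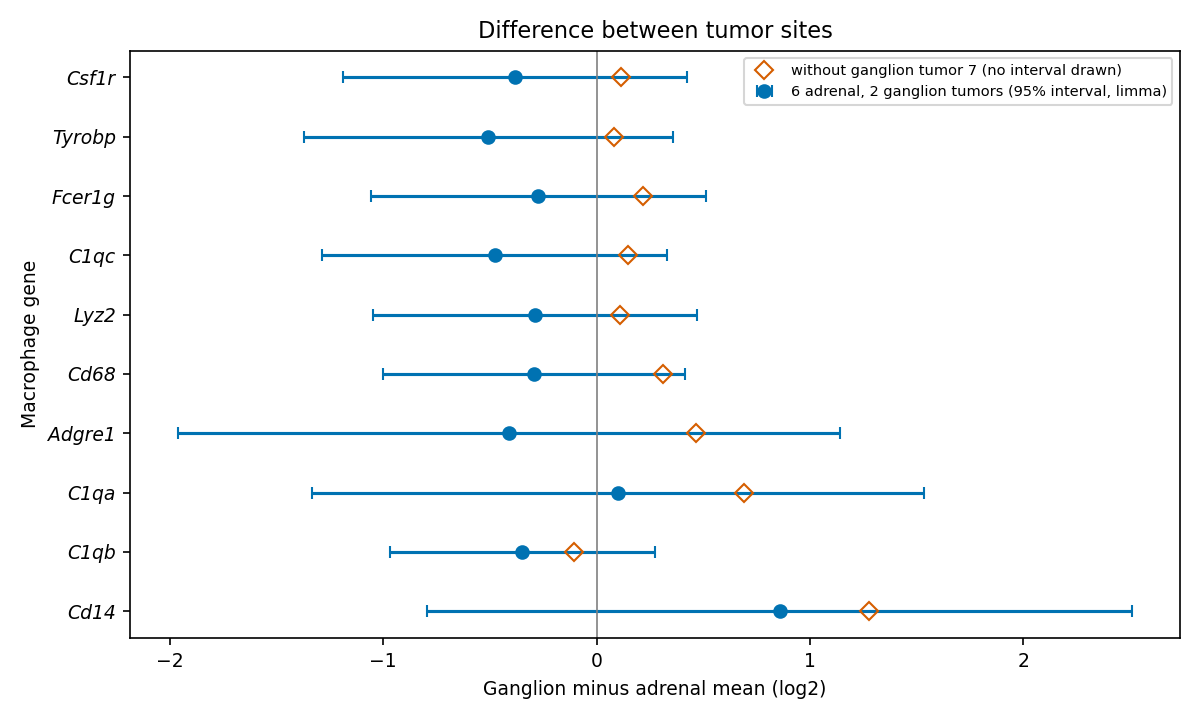
Ganglion minus adrenal mean on the log2 scale for each macrophage gene: filled circles with 95% intervals from limma over 6 adrenal and 2 ganglion tumors, open diamonds the value without ganglion tumor 7. Every interval spans 0, and without tumor 7 all but C1qb, drawn from its kept probe set, lie above 0.

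Other genes of macrophages were measured for 27 of the 30 listed, with 17 detected in every tumor, 8 in some and 2 in none. None was called between sites. Ctss, the macrophage protease cathepsin S, was lowest in tumor 7 (10.39) and highest in tumor 3 (12.13), and had r = 0.895 with the mean of the 10 genes. Axl, a receptor for apoptotic cells named here after its values were seen, ran from 6.20 in tumor 7 to 8.35 in tumor 8 (r = 0.936). Not all members of the list moved this way. Gpnmb, a lysosomal glycoprotein, was at 10.16 in tumor 5 and 9.97 in tumor 7, near the top of its range (r = -0.32). Laptm5, a lysosomal membrane protein of white blood cells, was within 9.85 to 10.37 (r = -0.55). Ccr2, the receptor for Ccl2 on monocytes, and Itgam (CD11b) were detected in no tumor. Of 26 tested genes of the list, 7 had r above 0.7 with the mean of the 10, beside 7.68% of the 16244 other tested genes. Such likeness was not particular to macrophage genes. The median r was 0.533 for this list and 0.638 for 11 noradrenergic genes, of which 2 had r above 0.7. The noradrenergic list mean, however, was -3.00 in tumor 7 and between 0.26 and 0.68 in the other tumors, with 0.52 in tumor 5. That r therefore leans on 1 array, and its value without tumor 7 was not computed.

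The ligands and transcription factors of the lineage were measured for 16 of 17 genes, 9 of them detected in all tumors and 0 called between sites. Maf, a transcription factor of tissue macrophages, was lowest in tumors 5 (7.99) and 7 (8.20) and highest in tumor 6 (9.35). Cebpb, a factor of inflammatory macrophages and many other cells, was instead highest in tumors 7 (9.73) and 2 (9.51). For the receptors and kinases of the ITAM pathway, 18 of 20 genes were measured, 9 were detected in all tumors and 0 were called between sites. Sirpa, the receptor for the CD47 signal and also made by neurons, ran from 8.36 in tumor 7 to 9.90 in tumor 2. Clec7a, the beta-glucan receptor, was lowest in tumor 5 (8.12) and highest in tumor 1 (10.36), with 9.69 in tumor 7. Syk, named after its values were seen, was at 8.32 in tumor 2 and elsewhere between 7.06 and 7.61.

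The complement list beyond C1q had 15 of 20 genes measured, 4 detected in all tumors and 0 called between sites. Serping1, the inhibitor of the C1 proteases, was at 9.90, 10.29 and 9.75 in tumors 1, 6 and 8 and at 7.44 in tumor 5. C8a, a component of the membrane attack complex made by the liver, was at 9.04 in tumor 6 and at 4.55 or below elsewhere. That list mean was 1.27 above average in tumor 6, where the hepatocyte list was 5.43 above, and the part of liver RNA in it was not tested. Cd14's partners in lipopolysaccharide sensing were measured for 12 of 13 genes, with 0 called between sites. The signaling proteins Irak1, Traf6, Myd88, Tirap and Ticam1, the last named after its values were seen, were detected in all tumors. The receptors Tlr4, Tlr2, Tlr1 and Tlr6 and the Tlr4 cofactor Ly96 were detected in none.

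Class II antigen presentation was measured for 9 of 10 genes, with 2 detected in all tumors and 0 called between sites. H2-Aa, a class II chain, was at 6.88 in tumor 5 and 11.08 in tumor 1, and H2-Ab1 at 6.88 and 10.22 in the same tumors. Both values of tumor 5 were under that array's detection limit of 6.89. H2-Eb1 and the invariant chain Cd74 were also highest in tumor 1 and lowest in tumor 5. Tumor 1 was the array with the wide Gapdh gap, and the part of that gap in these values was not tested. Of 14 genes used to describe activation states, 2 were detected in all tumors and 0 were called. Arg1, an arginase of alternatively activated macrophages that hepatocytes also make, was at 10.43 in tumor 6 and 6.75 to 8.59 elsewhere. Of the 14, 7 were detected in no tumor, Nos2, Il10, Il12b, Chil3 and Mgl2 among them, and Retnla was detected in 2.

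**Figure D5:**
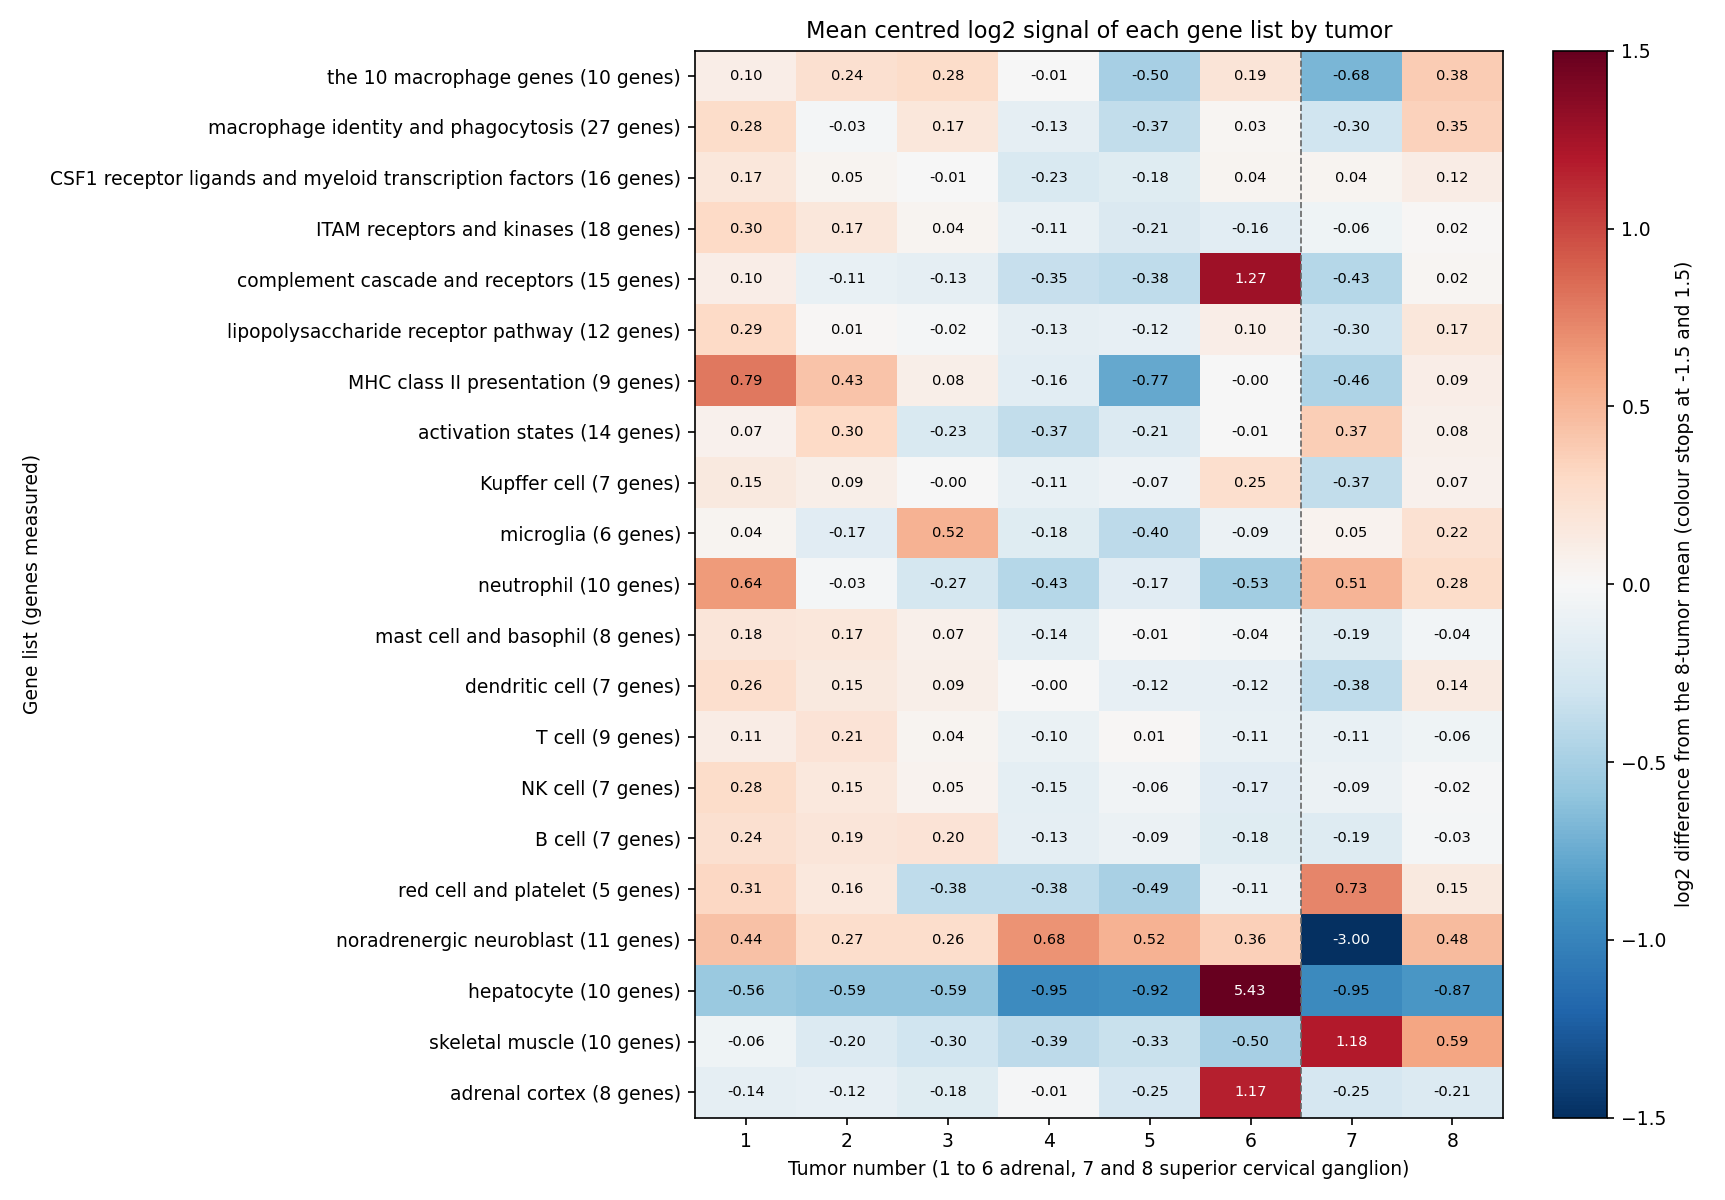
Mean over each gene list (rows) of the log2 signal minus the gene's own 8-tumor mean, by tumor (columns); red is above and blue below the average, colours stop at -1.5 and 1.5, and each cell gives the value. The 10 macrophage genes are lowest in tumors 7 and 5, the noradrenergic list is at -3.00 in tumor 7, and the hepatocyte list at 5.43 in tumor 6.

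Markers of other blood cells, some of which share genes with the set, were detected for a part of each list or for none of it. Of 8 mast cell and basophil genes, 0 were detected in all tumors, and the Fc receptor alpha chain Fcer1a and the protease Cpa3 were detected in none. Of 7 NK cell genes all were detected in none. Of 9 T cell genes, Cd3d, Cd28, Cd5, Cd8b1, Cd2 and Cd3g were detected in none, and Cd4, Cd8a and Cd3e, between 6.50 and 7.53, passed the limit in 5 to 7 tumors. Of 7 B cell genes, 5 were detected in none, Cd79a and Ms4a1 among them, whereas Cd22 (7.67 to 8.42) and the immunoglobulin heavy chain Ighm (7.84 to 8.14) were detected in all tumors. Of 10 neutrophil genes 6 were detected in none, Elane and Mpo included. S100a8 and S100a9 were above the limit in tumors 1, 7 and 8, and the growth factor receptor Csf3r was detected in all tumors (6.98 to 7.54). The list means over tumors ran from -0.53 in tumor 6 to 0.64 in tumor 1 for neutrophil genes, from -0.11 to 0.21 for T cell genes and from -0.17 to 0.28 for NK cell genes. Dendritic cell markers were detected in all tumors for 3 of 7 genes, and Xcr1 and Ccr7 in none.

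Of 7 Kupffer cell genes, 1 was detected in all tumors, 4 in some and 2 in none. Cd5l, a secreted protein of Kupffer cells and some other tissue macrophages, was detected in all tumors, from 10.49 in tumor 8 to 11.83 in tumor 1, with 11.11 in tumor 6. Clec4f, which marks Kupffer cells, was at 6.23 to 6.63 and detected in none, tumor 6 included, as was Vsig4. Folr2 passed the limit in 5 tumors, and Timd4, Marco and C6 in 1 each. Of 6 microglia genes, 4 were detected in none, P2ry12 and Sall1 included. Tmem119 was above the limit in 5 tumors and Olfml3 in 6.

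The 15 genes outside the set whose pattern was most like the mean of the 10 had r between 0.938 and 0.979 over the 8 tumors, and between 0.867 and 0.977 without tumor 7. They were 2410017I17Rik, Mrpl14, Pdlim4, Otulinl, Ndufs4, Commd1, Mettl5, Ndufs5, Inhbe, Gsn, Tm2d1, Gpr65, Plaat3, Commd8 and Naaa. Mrpl14 encodes a mitochondrial ribosomal protein, Ndufs4 and Ndufs5 are subunits of respiratory complex I, and Gsn encodes the actin-severing protein gelsolin. Pdlim4 and Gsn varied as much as the macrophage genes did (SD 0.90 and 0.55), and the SD of Ndufs5 was 0.19. 2410017I17Rik and Inhbe were detected in no tumor and Gpr65 in 2.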

How the data were processed

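RNA of 8 tumors was profiled on Affymetrix whole-genome mouse arrays, 1 per tumor, 6 adrenal and 2 ganglion tumors by the labels. The authors deposited log2 values per probe set, already background-corrected and normalized between arrays. RMA and Partek 6.6 stand in the submitters' notes, while the Methods give gcRMA; the choice between them was not settled. This matters most for low signals, which the 2 methods treat differently. Array images were not used here, and no 2 arrays were identical (0 pairs).

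Probe sets were named from the platform annotation, with symbols updated through RefSeq: 34958 had 1 gene, 932 several and 9211 no name, and the latter groups were left out. For genes with several probe sets, that of highest mean was kept. Genes had to exceed log2 5 in 2 or more tumors, which left 16254. The site comparison used lmFit and eBayes of limma 3.58.1 (R 4.3.3) with Benjamini-Hochberg adjustment and a threshold of 0.05, and was checked on simulated data. Correlations with partner genes were tested by all 40320 permutations of the tumors in Python 3.11.15 with numpy 2.4.6. Detection is relative to silent receptor genes, and 8 arrays limit the precision.

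Named within a list were called genes, up to 4 with the highest and 4 with the lowest mean and those detected nowhere, and outside it the 15 genes most like the set; exceptions are marked. The genes and lists were chosen with earlier results of these data known. Alternatives covered normalization, filter, probe set, variance model, detection limit and each tumor left out; those without tumors 1 and 7, with the adrenal tumors alone or with the other C1qb probe set were added after seeing the data.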

Additional observations from a re-analysis of the deposited data

Results flagged for a closer look

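Some values lay far from the others among the 6 adrenal tumors, judged by the gap to the nearest tumor as a share of the whole range, with a limit of 0.625 for 6 samples. The limit was applied at both ends of 14 probe sets and 21 list means, and chance alone passes it in about 1 of 20 groups. For Cd14 in tumor 2 this share was 0.6895. For the kept C1qb probe set in tumor 1 it was 0.6321. The mean of the 10 macrophage genes in tumor 5, at the low end, it was 0.6279. In tumor 6, at the high end, the gap was 0.9385 for the hepatocyte list, 0.8338 for the adrenal cortex list and 0.7134 for the complement list.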

How the results depend on the processing

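The count of macrophage genes called between sites stayed at 0 in every alternative run. The count over all genes, 3 as reported, was 1 with the receptor-based filter and 6 with the mean of all probe sets, and ran from 2 to 951 when 1 tumor was left out, the highest without tumor 8. The median r of the 45 pairs, 0.564, ran from 0.347 to 0.67 with 1 tumor left out and was 0.305 in the adrenal tumors alone. Called relations with partner genes, 0 as reported, were 1 with quantile normalization and 0 to 1 with 1 tumor left out. Without tumors 1 and 7 the site difference turned positive for Adgre1 (0.57), C1qb (0.032), C1qc (0.16), Cd68 (0.24), Csf1r (0.23), Fcer1g (0.32), Lyz2 (0.11) and Tyrobp (0.19). With 1 tumor left out the site difference ran from -1.28 to 0.46 for Adgre1, -0.49 to 0.69 for C1qa, -1.11 to 0.15 for C1qc, -0.89 to 0.31 for Cd68, -0.88 to 0.11 for Csf1r, -0.77 to 0.22 for Fcer1g, -0.68 to 0.11 for Lyz2 and -1.10 to 0.080 for Tyrobp. The cause was not tested. Genes detected in all tumors numbered 9, and 8 or 10 under the other limits. Signal near background limits Cd14, Spi1, Il34 and Ccl2. No paired analysis was possible because the labels do not pair tumors across sites.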
